A study of Homo sapiens with 6 samples.

Results

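The histone genes were followed across 6 arrays of A375, a human melanoma line that carries an activated BRAF kinase. Members were the genes with a probe set of 1 symbol that begins H1-, H2AC, H2BC, H3C or H4C, or that names a variant of H2A or H3, and each gene was represented by its probe set with the highest mean on the log2 scale. This gave 54 of the 19775 genes with such a probe set. Among them 43 belong to the replication-dependent families, 7 are variant histones (H1-7, H1-8, H1-10, H2AX, H2AZ1, H2AZ2 and H3-3A), 3 are pseudogenes (H1-9P, H2AC5P and H4C10P) and 1, H1-10-AS1, is an antisense gene whose symbol met the rule although it is no histone. H3-3B was not analysed here as a single gene. Of the 54 members, 32 had a mean of at least 5 log2 units over the 6 arrays and entered the tests. These were 25 replication-dependent genes, 6 variants and the pseudogene H1-9P. The members nearest that limit were H2AC8 (mean 5.07), H1-7 (5.09), H2AC17 (5.18) and H4C4 (5.18) above it, and H4C1 (4.98), H1-10-AS1 (4.93), H2AC5P (4.59) and H2BC3 (4.44) below it.

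All arrays came from A375 cells in which CRISPR had been used to knock out eIF4B, a protein that assists the helicase eIF4A in translation initiation. The cells were then given a lentiviral transgene, LacZ in the line called KO/LacZ (here the knockout line, or knockout cells) and wild-type eIF4B in the line called KO/eIF4B (here the rescued line, or rescued cells), so both lines carry the knockout and a transgene. Each of the 2 lines was treated with the vehicle, DMSO, with 10 µM vemurafenib, an inhibitor of mutant BRAF, for 6 h, or with the same dose for 18 h, and 1 array was made for each of the 6 combinations. No duration is stated for vehicle treatment, and separate cultures are not stated either, so the p-values measure only the spread between these arrays. Whether a line was a single clone is also not stated. Values are RMA intensities on the log2 scale, and their number limits the precision. EIF4B read 8.40 to 8.53 on the 3 knockout arrays and 10.07 to 10.28 on the 3 rescued arrays, a log2 difference of -1.68 (SE 0.05, limma, adjusted p = 0.0056). Of the pigment cell markers, SOX10 (9.86 to 10.57) and MITF (8.10 to 9.97) were well above the limit of 5, PMEL and TYR were between 5.44 and 5.81, and MLANA (4.76 to 4.99) and TYRP1 (3.43 to 3.80) were below it.

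Replication-dependent histone genes supply the H2A, H2B, H3, H4 and linker H1 proteins that package newly copied DNA. They lie mostly in clusters, carry no introns, and are transcribed chiefly in S phase with the help of the coactivator NPAT. Most of their mRNAs end in a stem-loop bound by SLBP instead of a poly(A) tail, but some genes also give polyadenylated transcripts. Variant histones are made outside S phase too, usually from polyadenylated mRNAs, and replace the canonical proteins at particular places in the genome. The cRNA was prepared by the standard Affymetrix protocol, which starts from an oligo(dT) primer, so a stem-loop mRNA without a tail can be measured poorly. Each level therefore describes the transcripts that this labelling captured.

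The promoters of 6 members that the results turn on are shown to set the 2 genes that rose at 18 h, H2AC6 and H2AC25, beside 4 that fell. Each sequence is the 200 bases before the gene's start in RefSeq (GRCh38.p14), 5′ to 3′ on the gene's strand, with matches to the searched motifs in capitals. H2AC6 was read from chr6:26123972-26124171 on the plus strand, H2AC25 from chr1:228457874-228458073 on the minus strand and H2BC9 from chr6:26251414-26251613 on the plus strand. H3C7 came from chr6:26250636-26250835 on the minus strand, H4C5 from chr6:26204410-26204609 on the plus strand and H1-1 from chr6:26017788-26017987 on the minus strand.

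H2AC6: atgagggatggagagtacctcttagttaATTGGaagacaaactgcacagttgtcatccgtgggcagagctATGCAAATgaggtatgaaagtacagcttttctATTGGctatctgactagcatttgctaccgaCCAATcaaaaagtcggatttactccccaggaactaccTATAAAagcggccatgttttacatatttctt

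H2AC25: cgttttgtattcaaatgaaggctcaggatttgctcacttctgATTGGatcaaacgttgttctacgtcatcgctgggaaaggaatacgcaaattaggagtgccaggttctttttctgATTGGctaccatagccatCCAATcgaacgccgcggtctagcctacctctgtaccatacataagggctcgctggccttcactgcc

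H2BC9: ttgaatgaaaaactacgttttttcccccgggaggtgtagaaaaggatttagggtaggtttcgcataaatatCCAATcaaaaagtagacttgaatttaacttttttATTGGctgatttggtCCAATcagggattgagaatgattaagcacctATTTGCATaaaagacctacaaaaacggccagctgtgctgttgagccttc

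H3C7: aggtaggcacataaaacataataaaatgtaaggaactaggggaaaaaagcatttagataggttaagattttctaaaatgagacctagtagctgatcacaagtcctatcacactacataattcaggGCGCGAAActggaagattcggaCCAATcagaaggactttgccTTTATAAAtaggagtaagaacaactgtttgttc

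H4C5: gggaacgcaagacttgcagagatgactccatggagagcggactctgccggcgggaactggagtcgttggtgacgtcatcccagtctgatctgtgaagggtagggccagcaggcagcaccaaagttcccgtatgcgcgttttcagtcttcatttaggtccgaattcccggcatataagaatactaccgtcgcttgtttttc

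H1-1: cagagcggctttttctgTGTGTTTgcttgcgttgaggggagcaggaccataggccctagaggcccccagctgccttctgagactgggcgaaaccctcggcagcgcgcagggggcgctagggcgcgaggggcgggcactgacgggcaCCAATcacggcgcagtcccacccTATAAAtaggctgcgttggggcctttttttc

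The motifs were the TATA box TATAAA, the CCAAT box, the octamer ATTTGCAT, the AC box AAACACA and 4 E2F site forms (TTTCCCGC, TTTGGCGC, TTTCGCGC and TTTGCCGC), each searched on both strands. TATAAA lay 31 to 26 bases before the start in H2AC6, H3C7 and H1-1, and in H3C7 it overlapped a match on the other strand. H2AC6 and H2BC9 each held the octamer and 3 CCAAT matches. H2AC25 held 3 CCAAT matches, and H4C5 held none of these letters in its window. H1-1 held the AC box and H3C7 an E2F form.

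The same search over 300-base windows (250 before the start and 50 after it) matched 40 of the 43 replication-dependent genes to a RefSeq promoter. Divergent neighbours can share part of a window. TATAAA was in 27 of the 40 (67.5%, against 3264 of all 27305 promoters, or 12%) and CCAAT in 35 (87.5% against 35.7%). The octamer was in 16 (40.0% against 1.8%), in 6 of 8 H2A genes and 10 of 13 H2B genes and in none of the H1, H3 and H4 genes. The AC box was in all 6 H1 genes and in no gene of the other families (15.0% of the 40, against 5.76% of all promoters). An E2F form was in 12 of the 40 (30.0% against 3.33%). These matches are a description of the letters in each window.

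Histone transcripts were compared after 6 h of vemurafenib and under vehicle. None of the 25 replication-dependent genes tested passed the threshold (limma, Benjamini-Hochberg adjusted p under 0.05), beside 16.2% of all tested genes (7.34% higher and 8.82% lower). An unadjusted p under 0.05 was found for 4 of the 25 (H2AC6, H2AC25, H4C8 and H1-4) and for 4420 of all 13506 tested genes. The median log2 change of the 25 genes was 0.02, and that of all tested genes was 0.03. Changes ran from -0.28 for H4C8 to 0.48 for H2AC6, with 11 below 0, beside 5866 of all 13506 tested genes below 0. None of the 6 variants passed either, and none had an unadjusted p under 0.05. H2AC6 read 5.18 under vehicle and 5.73 at 6 h in the knockout line, and 5.81 and 6.20 in the rescued line. Both 6 h values were above their own line's vehicle value, but the knockout 6 h array was below the rescued vehicle array (log2 change 0.48, SE 0.13, limma, adjusted p = 0.074). With either 18 h array left out, H2AC6 and H2AC25 passed, both higher.

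At 18 h most of the replication-dependent genes were lower than under vehicle. Of the 25 tested, 16 fell and 2, H2AC6 and H2AC25, rose, and the median log2 change was -0.38 against 0.01 over all tested genes. In all, 51.4% of tested genes were called at 18 h, 23.3% lower and 28.1% higher, while the 25 genes gave 64.0% lower. In both lines 20 of the 25 changes were below 0, with medians of -0.36 in knockout cells and -0.30 in rescued cells. The shares of all tested genes below 0 were 49.2% in knockout cells and 47.5% in rescued cells. Both 18 h arrays lay below both vehicle arrays for 19 genes and above both for 4, and 34.0% and 37.0% of all tested genes did so. With the knockout vehicle array left out, 9 genes were called, 7 lower (H3C7, H3C3, H1-1, H1-3, H4C4, H4C5 and H4C8) and H2AC6 and H2AC25 higher. In bulk RNA, fewer cells in S phase and less histone RNA per cell cannot be told apart.

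**Figure D1:**
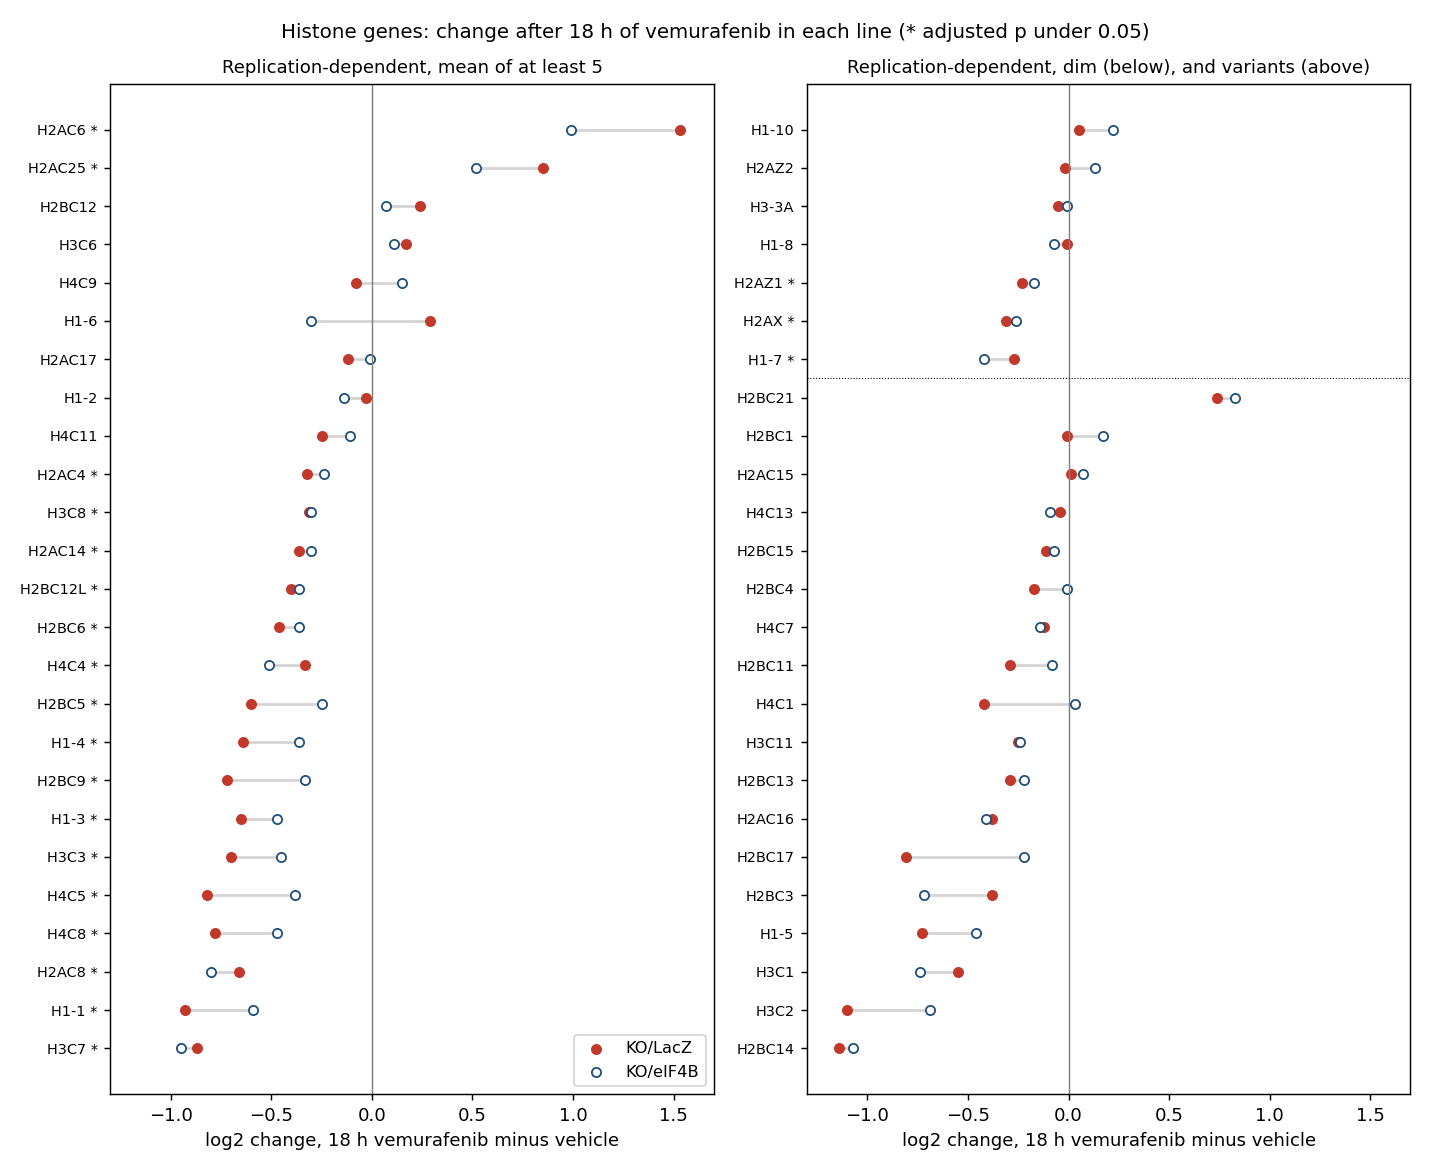
Log2 change at 18 h of vemurafenib against vehicle for each histone gene in the knockout line (filled) and the rescued line (open), 1 array per point and treatment. Left, the 25 replication-dependent genes tested, from H2AC6 at the top (1.53 and 0.99) to H3C7 at the bottom (-0.87 and -0.95). Right, the dim replication-dependent genes below the dotted line and the variants above it. Asterisks mark genes called in the main fit, which dim genes and H1-8 did not enter.

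Among the genes of histone H3, H3C7, which encodes a canonical H3, fell the most. It read 6.08, 6.02 and 5.20 under vehicle, 6 h and 18 h in the knockout line, and 5.98, 5.90 and 5.03 in the rescued line. Only the 18 h arrays were low, and they did not overlap with the other 4. The fall was 1.88-fold (log2 change -0.91, SE 0.06, limma, adjusted p = 0.00045). H3C3, another canonical H3 gene, read 6.05, 5.86 and 5.35 and then 6.03, 5.78 and 5.58 (log2 change -0.57, SE 0.09, adjusted p = 0.0053). H3C8 fell by 0.31 on the log2 scale. H3C6 read 5.41, 5.46 and 5.58 in knockout cells and 5.45, 5.72 and 5.55 in rescued cells, a difference that did not pass (0.14, adjusted p = 0.25). In all, 3 of the 4 H3 genes tested fell, with a median of -0.44.

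Linker histones bind the DNA between nucleosomes and compact it, and 3 of the 5 replication-dependent H1 genes tested fell (median -0.50). That was 60.0%, beside 51.4% of all tested genes called at 18 h and 23.3% lower. H1-1 read 7.07, 6.90 and 6.14 in knockout cells and 6.79, 7.03 and 6.20 in rescued cells. Its 18 h arrays were the lowest in both lines, at 1.69-fold below vehicle (log2 change -0.76, SE 0.11, adjusted p = 0.0038). H1-3 read 8.03, 7.94 and 7.38 and then 7.89, 8.12 and 7.42 (log2 change -0.56, SE 0.09, adjusted p = 0.0051). H1-4 fell by 0.50 on the log2 scale, after a 6 h value above vehicle in both lines. H1-2, which can give a polyadenylated transcript, read 7.27, 7.18 and 7.25 in knockout cells and 7.39, 7.60 and 7.25 in rescued cells. Its 18 h arrays were slightly below both vehicle arrays (-0.08, adjusted p = 0.56). H1-6, the linker histone of the testis, read 5.23, 5.30 and 5.52 in knockout cells and 5.62, 5.30 and 5.32 in rescued cells. The lines ran in opposite directions in this probe set, and the mean change was 0.00 (limma, adjusted p = 0.99).

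The H4 genes encode the same protein from several loci, and 3 of the 5 tested fell (median -0.42). That was 60.0%, beside 51.4% of all tested genes called at 18 h and 23.3% lower. H4C8 read 5.59, 5.14 and 4.81 in knockout cells and 5.54, 5.44 and 5.07 in rescued cells (log2 change -0.62, SE 0.10, adjusted p = 0.0053). H4C5 read 6.02, 5.82 and 5.20 and then 5.95, 5.97 and 5.57 (log2 change -0.60, SE 0.11, adjusted p = 0.0087). In both genes the 18 h arrays were below the 4 others. H4C4 fell by 0.42 on the log2 scale, and H4C11 changed by -0.18 without passing (adjusted p = 0.14). H4C9 read 5.51, 5.44 and 5.43 in knockout cells and 5.44, 5.55 and 5.59 in rescued cells, with groups that overlapped (0.04, adjusted p = 0.72).

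Of the 5 H2B genes tested, 4 fell and none rose (median -0.41). That was 80.0%, beside 51.4% of all tested genes called at 18 h and 23.3% lower. H2BC9 read 6.80, 6.61 and 6.08 in knockout cells and 6.60, 6.75 and 6.27 in rescued cells (log2 change -0.53, SE 0.11, adjusted p = 0.012). H2BC6 fell by 0.41 on the log2 scale and H2BC12L, the member on chromosome 21, by 0.38. H2BC5 fell by 0.42 (SE 0.10, adjusted p = 0.020), but its other probe set went the opposite way. H2BC12, which can also be polyadenylated, read 8.10, 8.15 and 8.35 in knockout cells and 8.26, 8.40 and 8.33 in rescued cells, and its change of 0.16 did not pass (adjusted p = 0.17).

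The H2A genes went both ways: 3 of the 6 tested fell and 2 rose (median -0.17). H2AC8 read 5.42, 4.94 and 4.75 in knockout cells and 5.33, 5.43 and 4.53 in rescued cells, so that the lines disagreed at 6 h and were both low at 18 h (log2 change -0.73, SE 0.18, adjusted p = 0.019). H2AC14 fell by 0.33 on the log2 scale and H2AC4 by 0.28. H2AC17 read 5.17, 5.27 and 5.05 in knockout cells and 5.14, 5.34 and 5.13 in rescued cells, and did not pass (-0.07, adjusted p = 0.42).

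H2AC6, an H2A gene that is also transcribed into polyadenylated mRNA, rose the most of all members. It read 5.18, 5.73 and 6.71 under vehicle, 6 h and 18 h in knockout cells and 5.81, 6.20 and 6.79 in rescued cells. The level was higher at each later time in both lines, and the 18 h arrays were above the 4 others. It rose 2.39-fold (log2 change 1.26, SE 0.13, limma, adjusted p = 0.0014). H2AC25, an H2A gene that lies on chromosome 1 away from the main cluster, read 7.59, 7.86 and 8.44 in knockout cells and 7.70, 8.04 and 8.22 in rescued cells. It also stood higher at each later time in both lines, by 1.61-fold at 18 h (log2 change 0.69, SE 0.11, adjusted p = 0.0050). Its dimmer probe set changed by -0.03 (adjusted p = 0.83 in the fit with each probe set as its own row).

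**Figure D2:**
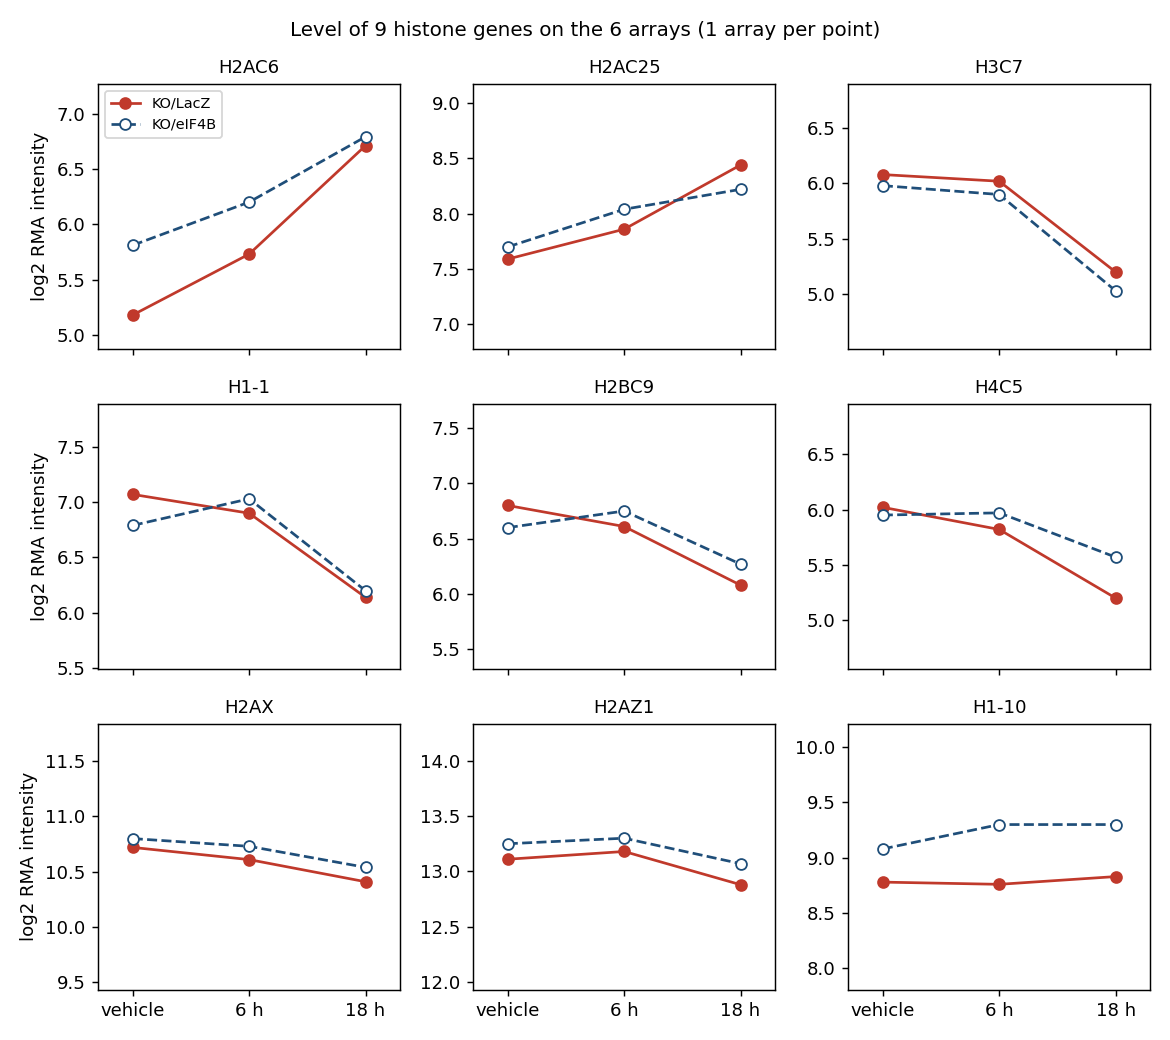
Log2 RMA intensity of 9 histone genes under vehicle, 6 h and 18 h of vemurafenib, 1 array per point, for the knockout line (filled, solid) and the rescued line (open, dashed). H2AC6 runs from 5.18 to 6.71 and from 5.81 to 6.79, H3C7 falls from 6.08 to 5.20 and from 5.98 to 5.03, and the 2 lines of H1-10 stay apart in all 3 treatments. All panels span the same number of log2 units.

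By location, 40 of the 43 replication-dependent members lie on chromosome 6, where 15 of the 23 tested fell and 1 rose. Of the 2 on chromosome 1, 1 was tested and rose, and the 1 on chromosome 21 fell. Probe sets named with an x or s suffix can match several transcripts. Of 9 such genes 7 fell and 1 rose (median -0.38), and of the other 16 genes 9 fell and 1 rose (median -0.35). Among the 6 members listed as also polyadenylated, 4 were tested (median 0.04). H2AC6 rose, H2BC5 fell by its brightest probe set, and H1-2 and H2BC12 did not pass. The other H2BC5 set rose by 0.70 (limma, adjusted p = 0.0027 in the fit with each probe set as its own row). Of all tested genes 51.4% were called at 18 h, so the 2 called of 4 is near that background. Among the 15 genes that fell and have a RefSeq promoter, 10 held TATAAA, 12 CCAAT, 5 the octamer, 3 the AC box and 2 an E2F form (66.7%, 80.0%, 33.3%, 20.0% and 13.3%). Over the 40 replication-dependent promoters the shares, in the same order, were 67.5%, 87.5%, 40.0%, 15.0% and 30.0%, and the differences were not tested. Of the 2 that rose, 1 held TATAAA, both held CCAAT, 1 held the octamer and neither held the AC box or an E2F form.

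A further 18 replication-dependent members were below the limit of 5, with means of 2.61 to 4.98. In a fit with no limit, where 34.1% of 19775 genes were called at 18 h (15.5% lower and 18.7% higher), 6 of the 18 fell and 1 rose, with a median of -0.22 and 15 changes below 0. H2BC14 read 4.93, 4.33 and 3.80 in knockout cells and 4.60, 4.63 and 3.54 in rescued cells, the largest fall of the 18 (log2 change -1.10, limma, adjusted p = 0.0056). H3C2 fell by 0.90, H3C1 by 0.65, H1-5 by 0.60, H2BC3 by 0.55 and H2BC17 by 0.52. H2BC21, an H2B gene that can be polyadenylated, went the other way. It read 3.97, 4.04 and 4.71 in knockout cells and 3.71, 4.09 and 4.54 in rescued cells (log2 change 0.78, adjusted p = 0.0029). RMA compresses changes at such low intensities.

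Of the 6 variant histones tested, 3 fell at 18 h and none rose, with a median of -0.12. Of all tested genes 51.4% were called at 18 h, 23.3% lower, so the 3 called of 6 is near that background. H2AX, the H2A variant that is phosphorylated at DNA breaks, read 10.72, 10.61 and 10.41 in knockout cells and 10.80, 10.73 and 10.54 in rescued cells. The 18 h arrays were below the 4 others, by 1.22-fold against vehicle (log2 change -0.29, SE 0.06, limma, adjusted p = 0.011). H2AZ1, which encodes an H2A.Z found at promoters, read 13.11, 13.18 and 12.88 and then 13.25, 13.30 and 13.07 (log2 change -0.20, SE 0.06, adjusted p = 0.040). H1-7, a linker histone of spermatids, read 5.22, 5.06 and 4.95 and then 5.29, 5.16 and 4.87 (log2 change -0.34, SE 0.07, adjusted p = 0.012), just above the limit of 5. All 3 calls were lost with either vehicle array left out, and that of H2AZ1 with any single array left out.

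The other variants did not pass at 18 h. H2AZ2, the second H2A.Z gene, read 11.48, 11.58 and 11.46 in knockout cells and 11.63, 11.75 and 11.75 in rescued cells (0.05, adjusted p = 0.56). H3-3A, which encodes the replacement histone H3.3, read 7.35, 7.29 and 7.30 and then 7.13, 7.19 and 7.11 (-0.03, adjusted p = 0.70). In both genes the treated arrays overlapped with the vehicle arrays. H1-10, a linker histone variant, read 8.78, 8.76 and 8.83 and then 9.08, 9.30 and 9.30 (0.14, adjusted p = 0.21). H1-8, the linker histone of the oocyte, lay at 3.74 to 3.88 on all 6 arrays, below the limit. Of the pseudogenes, H1-9P changed by 0.06 (adjusted p = 0.60), while H2AC5P and H4C10P were below the limit, as was H1-10-AS1.

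Between 6 h and 18 h, 14 of the 25 replication-dependent genes fell and 1, H2AC6, rose, with a median of -0.35 (34.0% of all tested genes were called, 14.9% lower and 19.0% higher). H3C7 changed by -0.84 (SE 0.06, limma, adjusted p = 0.0026), H1-1 by -0.80 (SE 0.11, adjusted p = 0.0074) and H1-4 by -0.73 (SE 0.09, adjusted p = 0.0050). H2AC6 rose by 0.78 (SE 0.13, adjusted p = 0.012), and the change of H2AC25, 0.38, did not pass (adjusted p = 0.050). H2AZ1 was the 1 variant that fell (-0.27, adjusted p = 0.025), and that call was lost with any single array left out other than the rescued 18 h array. The count of 15 replication-dependent genes dropped to 6 without the knockout 18 h array, 7 without the knockout 6 h array and 6 without the rescued 6 h array. This comparison shares the 18 h arrays with the one against vehicle, so the values of both are given side by side only.

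**Figure D3:**
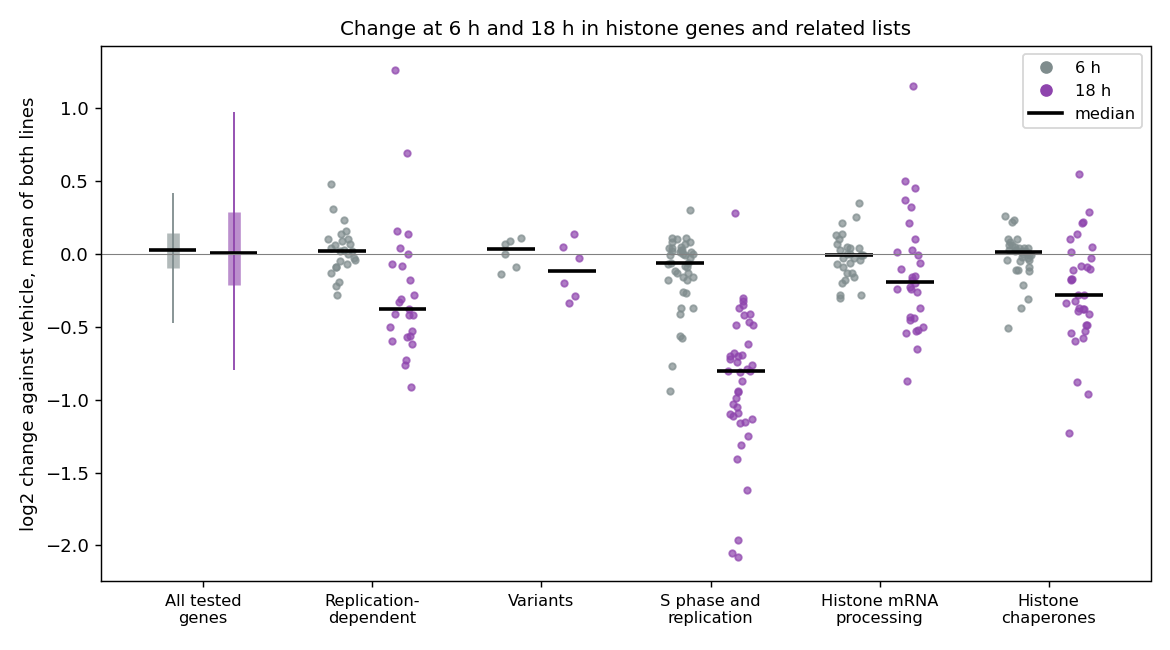
Log2 change against vehicle at 6 h (grey) and 18 h (purple), mean of both lines, 1 point per gene. For all 13506 tested genes the bar spans the 25th to 75th percentile and the line the 5th to 95th. Black marks are medians: for the replication-dependent genes they are 0.02 and -0.38, for the S phase list -0.06 and -0.80.

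Genes of S phase and DNA replication were set beside the histones. At 6 h, 7 of the 41 tested fell and none rose (median -0.06). That was 17.1% called, beside 16.2% of all tested genes, of which 8.82% were lower. CDC25A, a phosphatase that activates CDK2, had changed by -0.94 and CDK2 itself by -0.56, while no replication-dependent histone gene had passed. At 18 h, 40 of the 41 fell (97.6%, beside 23.3% of all tested genes) and 1, RFC5, rose by 0.28 (median -0.80). CDC25A reached -2.08, the cyclin CCNE2 -2.05 and the replication factor MCM10 -1.96, and the clamp PCNA changed by -0.70. The histone genes' own median of -0.38 stands beside these values, and the difference between the lists was not tested.

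Of the genes for transcription, 3′ end processing and decay of histone mRNA, 30 were tested. At 6 h only FIP1L1, a polyadenylation factor, passed (-0.28, limma, adjusted p = 0.037), or 3.3% of the list beside 16.2% of all tested genes. At 18 h, 15 of the 30 fell and 6 rose, with a median of -0.19. Beside them, 51.4% of all tested genes were called at 18 h, 23.3% lower and 28.1% higher. SLBP, the protein that binds the stem-loop, read 11.34, 11.08 and 10.58 in knockout cells and 11.46, 11.11 and 10.47 in rescued cells (log2 change -0.87, SE 0.08, adjusted p = 0.00080). It was lower at each later time in both lines. The coactivator NPAT read 7.53, 7.25 and 7.09 and then 7.61, 7.32 and 6.97 (-0.53, adjusted p = 0.0035). ZNF473 and LSM11, factors of 3′ end cleavage, fell by 0.65 and 0.52, and CASP8AP2, a component of histone locus bodies, by 0.45. The exonuclease ERI1, which trims histone mRNA ends, fell by 0.44.

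The 6 genes of that list that rose were MIF4GD, XRN1, TUT4, HINFP, TUT7 and CPSF3. MIF4GD, a partner of SLBP in the translation of histone mRNA, read 7.76, 8.03 and 9.07 in knockout cells and 7.74, 8.18 and 8.74 in rescued cells (log2 change 1.15, SE 0.12, adjusted p = 0.0013). XRN1, an exonuclease of mRNA decay, rose by 0.50, and the uridylyltransferases TUT4 and TUT7 by 0.45 and 0.32. HINFP, a transcription factor of H4 genes, rose by 0.37, and the cleavage enzyme CPSF3 by 0.21. The list thus held members that rose and members that fell among both the processing and the decay factors.

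Among histone chaperones and deposition factors, 34 were tested. At 6 h VPS72, a subunit of H2A.Z deposition complexes, rose (0.26), and UBN1 (-0.51), SPTY2D1 (-0.37) and CHAF1A (-0.31) fell. These were 11.8% of the list, beside 16.2% of all tested genes. At 18 h 19 fell and 3 rose, with a median of -0.28. Thus 64.7% were called and 55.9% were lower, beside 51.4% and 23.3% of all tested genes. CHAF1A, the large subunit of the assembly factor that follows the replication fork, fell by 1.23 (SE 0.06, limma, adjusted p = 0.00024) and its partner CHAF1B by 0.58. MCM2, a helicase subunit that also binds histones, fell by 0.96 and HJURP, the chaperone of centromeric H3, by 0.88. ASF1B, NASP and HIRA fell by 0.53, 0.49 and 0.38. ATRX, a remodeller that works with DAXX in H3.3 deposition, rose by 0.55, VPS72 by 0.29 and NAP1L1 by 0.21, and DAXX fell by 0.28.

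The line comparison asks whether the histone transcripts differ without and with eIF4B. No replication-dependent gene passed (limma, adjusted p under 0.05), beside 2.5% of all tested genes (1.44% higher and 1.06% lower in the knockout line). An unadjusted p under 0.05 was found for 3 of the 25 (H2AC6, H1-4 and H3C7) and for 3101 of all 13506 tested genes. The median difference of the 25 genes, knockout minus rescued over the 3 treatments, was -0.06, with 21 of 25 below 0. Over all tested genes it was 0.00, with 6545 of 13506 below 0. The most negative were H2AC6 (-0.40, SE 0.11, adjusted p = 0.13), H1-4 (-0.24), H1-2 (-0.18) and H4C8 (-0.17). The most positive were H3C7 (0.13), H4C4 (0.08), H3C8 (0.05) and H1-1 (0.03). Treatment by treatment, the median over the 25 genes was 0.03 under vehicle, -0.15 at 6 h and -0.06 at 18 h, with 11, 19 and 17 genes below 0. The shares of all tested genes below 0 were 46.9%, 49.5% and 47.7%. H2AC6 was lower in the knockout line by 0.63 under vehicle, 0.47 at 6 h and 0.09 at 18 h, going by these single pairs of arrays.

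H1-10 was the 1 variant that passed. It was lower in the knockout line in all 3 pairs of arrays, at 8.76 to 8.83 against 9.08 to 9.30, by 1.36-fold (log2 difference -0.44, SE 0.06, limma, adjusted p = 0.046). The call was lost with any single array left out, when adjusted p-values reached 0.15. H3-3A differed by 0.17 (adjusted p = 0.15) and H2AZ2 by -0.20 (adjusted p = 0.12), without passing. None of the genes on the S phase, histone mRNA and chaperone lists passed in this comparison (limma). An unadjusted p under 0.05 was found for 10 of 41, 4 of 30 and 6 of 34, beside 3101 of all 13506 tested genes.

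The response to the drug was compared between the lines as the change in the knockout line minus that in the rescued line. At 6 h this difference was below 0 for 20 of the 25 replication-dependent genes (median -0.11), and for 55.7% of all tested genes (median -0.02). The median change itself was -0.07 in the knockout line, with 16 genes below 0 beside 44.8% of all tested genes. In the rescued line it was 0.10, with 7 genes below 0 beside 44.1%. At 18 h the difference between the lines was below 0 for 16 genes (median -0.08), and for 49.5% of all tested genes (median 0.00). For S phase genes the medians were -0.03 and -0.02. At a single time there is 1 array per line, so these differences have no test. A term for the response shared by both times called 0 of the 32 histone genes and 0.0% of all tested genes (limma, 302 genes with an unadjusted p under 0.05). Of the histone genes, H1-1, H2BC9 and H1-6 had an unadjusted p under 0.05.

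Among members with a mean of at least 6, the 18 h response was most negative in the knockout line relative to the rescued line for H2BC9 (-0.39), H2BC5 (-0.35), H1-1 (-0.34) and H1-4 (-0.29). H2BC9 changed by -0.72 in knockout cells and -0.33 in rescued cells, and H1-1 by -0.93 and -0.59. It was most positive for H2AC6 (0.54), H2AC25 (0.33), the pseudogene H1-9P (0.19) and H2BC12 (0.17). H2AC6 changed by 1.53 in knockout cells and 0.99 in rescued cells, and the lines read 6.71 and 6.79 at 18 h. The shared term for H2AC6 was 0.35 (SE 0.20, limma, adjusted p = 1.0), so this difference did not pass.

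Probe sets of the same gene were compared in a fit with each as its own row, in which 49.7% of 26196 probe sets were called at 18 h (24.3% lower and 25.4% higher). H2AX had 3 sets above the limit, with changes of -0.29 (limma, adjusted p = 0.014), -0.27 (0.056) and -0.29 (0.023). The H2AZ1 sets changed by -0.20 (0.048) and -0.22 (0.055), and the 4 H2AZ2 sets lay between -0.12 and 0.07 without passing. The sets of H2AX and of H2AZ1 thus pointed the same way. Those of H2BC5 did not: its brightest set read 7.52, 7.53 and 6.92 in knockout cells and 7.44, 7.50 and 7.20 in rescued cells (-0.42, adjusted p = 0.019). Its other set read 5.82, 6.29 and 6.46 and then 6.12, 6.37 and 6.87 (0.70, adjusted p = 0.0027). Both had an x design. The part of the transcript that each set matches was not analysed here.

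**Figure D4:**
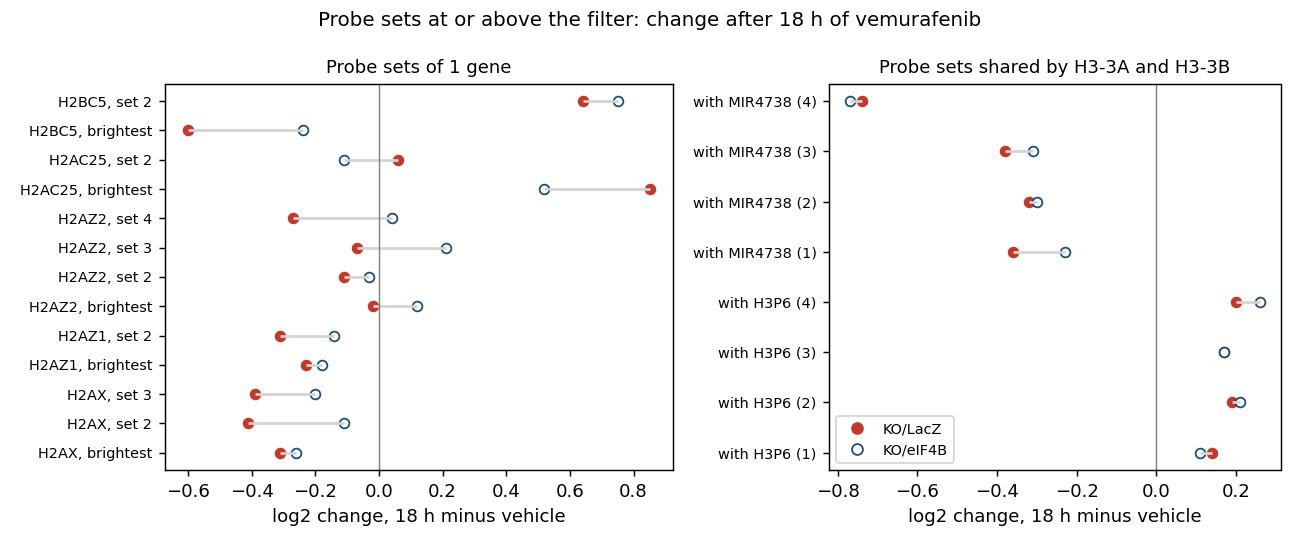
Log2 change at 18 h of vemurafenib against vehicle for probe sets with a mean of at least 5, knockout line filled and rescued line open. Left, probe sets of single genes, where the 2 sets of H2BC5 lie on opposite sides of 0. Right, the 8 sets whose annotation names both H3-3A and H3-3B, where the 4 that also name MIR4738 are below 0 in both lines and the 4 that also name H3P6 are above it.

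Another 28 probe sets carry several symbols that include members, and 17 of them were above the limit. At 18 h 8 fell and 2 rose (median -0.23), beside 24.3% and 25.4% of all tested probe sets. Of the 8 sets that name both H3.3 genes, the 4 that also name MIR4738 all fell, by 0.29 to 0.75 on the log2 scale. The lowest of them read 8.99, 8.70 and 8.25 in knockout cells and 8.79, 8.41 and 8.02 in rescued cells (-0.75, limma, adjusted p = 0.00074), and it had fallen by 6 h as well (-0.33, adjusted p = 0.030), when 8.44% of probe sets were called lower. Of the 4 that also name the pseudogene H3P6, 2 rose, and all lay between 0.12 and 0.23. These 2 kinds of set thus ran in opposite directions, and which of the genes each measures was not tested.

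Of the 20 shared sets that name replication-dependent genes only, 9 were tested, and 4 fell and none rose at 18 h. Beside them, 49.7% of all tested probe sets were called at 18 h, 24.3% lower and 25.4% higher. The set of H2BC11 and H2BC8 read 6.08, 5.89 and 5.15 in knockout cells and 6.23, 6.01 and 5.28 in rescued cells (-0.94, SE 0.06, limma, adjusted p = 0.00040). Its 18 h arrays were low in both lines, and the 6 h arrays lay between. Both tested sets of the group H2BC4, H2BC6, H2BC7, H2BC8 and H2BC10 fell (-0.41 and -0.55), as did the tested set of the group H2AC11, H2AC12, H2AC13, H2AC15, H2AC16 and H2AC17 (-0.43, adjusted p = 0.027). A bright set that names 14 H4 genes read 12.11, 12.10 and 11.79 and then 12.04, 12.21 and 11.94. It was lower at 18 h in both lines without passing against vehicle (-0.21, adjusted p = 0.072), and it was lower at 18 h than at 6 h (-0.29, adjusted p = 0.042), a comparison in which 14.8% of probe sets were called lower. Another tested set of the same genes changed by -0.23 at 18 h against vehicle (adjusted p = 0.080). A dimmer tested set of these genes went the other way, by 0.18 (adjusted p = 0.092).

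Cell type markers were read on the same arrays. The summed linear level of 6 epithelial markers went from 750 to 955 and 1909 in knockout cells and from 594 to 856 and 1343 in rescued cells over vehicle, 6 h and 18 h. KRT14 made up most of that rise, KRT5 and CLDN4 did not pass at 18 h, and EPCAM, CDH1 and KRT19 were below the limit of 5. The 6 fibroblast markers went from 426 to 584 and 1011 and from 526 to 664 and 1299, with LUM and DCN higher and COL1A2, COL3A1 and PDGFRA below the limit. COL1A1 read 7.87 to 8.0 and did not pass at 18 h (0.02, limma, adjusted p = 0.83). The pigment cell markers summed to 2381 to 3470 and the 4 blood markers with a probe set to 234 to 309, with PTPRC below the limit. LYZ fell at 18 h (-0.86, limma, adjusted p = 0.0013), and CD3E and HBB did not pass. The marker sums moved with the treatment, as the histone genes did, and their part in the result was not tested.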

How the data were processed

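Total RNA of A375 cells was labelled as biotinylated cRNA and hybridised to Affymetrix human U133 Plus 2.0 arrays. The deposited intensity values were made by the authors with RMA and the affy package, per the submitters' processing notes, on a linear scale (tool versions: not given in the sources used here). Because RMA gives all arrays nearly one distribution, the values cannot show whether cells held less mRNA in total. The log2 of each value was taken here. Of 54675 probe sets, 41091 carry 1 gene symbol, 1801 several and 11721 none here, and 62 are controls. Symbols were looked up in RefSeq's GRCh38.p14 table (41037 matched). The 69 member probe sets gave 54 genes, each represented by its brightest set. Genes with a mean of at least 5 were tested (13506).

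An additive model of line and treatment was fitted over all 6 arrays (limma 3.58.1, R 4.3.3, 2 residual and 3.19 prior degrees of freedom), with Benjamini-Hochberg adjustment over all tested genes and a threshold of 0.05. A model with a term for line by drug left 1 residual degree of freedom. The fit was also run on simulated data of 13506 genes, with 66 or 67 genes changed at each size and the rest unchanged. It recovered 58.2%, 94% and 100% of genes changed by 0.5, 1 and 2 log2 units at 18 h, and 38.8%, 91% and 100% at 6 h. The 6 h and 18 h simulations had the same design, so they differ only by random draws. The share of changed genes was not matched to the real data, where 51.4% were called at 18 h. Named were the 8 highest and 8 lowest 18 h changes, all variants, the 4 largest differences between the lines each way, the 4 largest response differences each way among members with a mean of at least 6, and the 4 members on each side of the limit. Members outside this rule that are named with a value complete a count or were chosen after their values were seen. Members, lists and rules were chosen with earlier results of these data known. Alternatives changed the limit, the choice of probe set, the centring, a pseudocount, the variance prior, the line term and the arrays used. The fit with each probe set as its own row was added after the data were seen. Sequences of promoters came from RefSeq.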

Additional observations from a re-analysis of the deposited data

Results flagged for a closer look

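In 2 of the 25 replication-dependent genes tested, the lines moved in opposite directions at both times. H1-6 changed by 0.07 at 6 h and 0.29 at 18 h in the knockout line, and by -0.33 and -0.30 in the rescued line. The term for a response shared by both times was 0.49 (knockout minus rescued, SE 0.16, limma, unadjusted p = 0.024, adjusted p = 1.0). Its other probe set, with a mean of 5.33, read 5.24, 5.34 and 5.24 in knockout cells and 5.25, 5.45 and 5.44 in rescued cells. In that set the rescued line was higher at both times, not lower, and no comparison passed. H4C9 changed by -0.07 and -0.08 in the knockout line and by 0.11 and 0.15 in the rescued line. The shared term was -0.21 (SE 0.14, limma, unadjusted p = 0.20, adjusted p = 1.0). H4C1, below the limit of 5 and not tested, changed by -0.16 and -0.42 in the knockout line and by 0.05 and 0.03 in the rescued line. Neither tested difference passed the test of the difference itself. With 1 array per line and time, the opposite directions rest on single arrays, and no cause was tested.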

How the results depend on the processing

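Counts below are of genes past the threshold (limma, adjusted p under 0.05). For replication-dependent genes at 6 h, the count went from 0 to 1 (H2AC6) with arrays centred on the median and with a variance trend, and to 0 to 2 leaving out 1 array. At 18 h it went from 18 to 11 with the limit at 6 log2 units, where 14 were tested, and to 10 without x and s probe sets, where 16 were tested. Leaving out 1 array gave 9 to 18. For 18 h against 6 h it went from 15 to 9 without x and s sets, and leaving out 1 array gave 6 to 14. Between the lines it was 0 in every setting run, as was the count of the shared response term over replication-dependent genes and variants. For variants at 18 h the count went from 3 to 1 without x and s sets and to 0 to 2 leaving out 1 array, and at 6 h it stayed at 0. For 18 h against 6 h it went from 1 to 0 with no limit, without x and s sets and with no line term, to 2 with the limit at 6, a pseudocount of 16 or a variance trend, and to 3 with centred arrays. Leaving out 1 array gave 0 to 1. Between the lines it went from 1 to 0 with no limit, without x and s sets and with any array left out, and to 3 (H1-10, H2AZ1 and H2AZ2) with a variance trend. H2BC5 at 18 h reversed to 0.14 (limma, adjusted p = 0.24) when its probe sets were averaged. For the 38 calls of single genes, 155 of 228 fits with 1 array left out kept the call, 73 lost it and 0 reversed, and of 271 other fits 254 kept it, 16 lost it and 1 reversed. The labels carry no replicate numbers, and line is a term of the model, so treatments were compared within each line. The error of a treatment effect is thus the disagreement between the 2 lines, which stand in for replicates. The shared response term could not be refitted with an array left out, since no residual degrees of freedom remain. Low signal limits the 18 dim replication-dependent genes most.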

Other observations

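Histone genes outside the rule were also read. Of 14 listed, 4 were tested, and H2AW is an older name of the member H2AC25. CENPA, the H3 variant of centromeres, fell at 18 h (-0.32, SE 0.08, limma, adjusted p = 0.019). MACROH2A1 (-0.12, adjusted p = 0.14), MACROH2A2 (0.23, adjusted p = 0.13) and H2AJ (0.05, adjusted p = 0.60) did not pass. None of the 4 passed at 6 h or between the lines, where 0 and 1 had an unadjusted p under 0.05 and H2AJ differed by 0.33 (knockout minus rescued, adjusted p = 0.063). Over all 13506 tested genes, 4420 and 3101 had an unadjusted p under 0.05.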
